A study of Arabidopsis thaliana with 116 samples.

Results

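The chloroplast genome of Arabidopsis thaliana was represented by 88 rows of the gene count table, those whose locus identifier begins with ATCG, out of 27655 rows in all. The 69 rows with a mean of at least 1 CPM (counts of a row scaled to a common library total) over the shoot libraries were kept and are described here across tissue, hormone and time. The 3 kept rows nearest to that limit had shoot means of 1.06, 1.09 and 1.12 CPM, and the 3 nearest rows left out had 0.964, 0.913 and 0.885 CPM. Without the shallowest shoot library 68 rows would have been kept.

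Col-0 seedlings were grown for 5 days and moved to medium with 2 µM abscisic acid (ABA), with 150 µM salicylic acid (SA), or with neither hormone. ABA signals water shortage and SA acts in defence against pathogens. Roots were cut from shoots, and both were sampled at 1, 2, 4, 7, 24 and 48 h, and control seedlings also at 0 h, in 3 libraries per group and 4 at 0 h, which gave 58 libraries from each organ. Nothing in the labels says whether the libraries of a group came from separate cultures, so the p-values measure the spread between libraries, which may be technical.

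The chloroplast keeps a small genome of its own, which encodes core subunits of the photosystems and of Rubisco, ribosomal proteins, and subunits of a bacterial-type RNA polymerase. That polymerase needs nuclear-encoded sigma factors and associated proteins, and a phage-type polymerase, also encoded in the nucleus, transcribes the same genome. Stable chloroplast messengers carry no long poly(A) tail, and adenylation there marks RNA for degradation. RNA in this study was selected with oligo-dT, so the counts come from whatever part of the chloroplast RNA was adenylated or held A-rich stretches, and they do not measure the total level of a chloroplast messenger.

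No file used here pairs ATCG identifiers with gene symbols. The reference annotation names 7 of the 69 rows in its notes: ATCG00420 (NADH dehydrogenase subunit J, of the chloroplast complex related to respiratory complex I), ATCG00430 (photosystem II reaction center protein G), ATCG00530 (a protein related to the proton extrusion protein CemA), ATCG00660 (ribosomal protein L20), ATCG00670 (the chloroplast-encoded subunit of the Clp protease), ATCG00750 (ribosomal protein S11) and ATCG01310 (ribosomal protein L2). These names stand in notes on related nuclear genes or pseudogenes, that of ATCG00430 in the note on AT5G11770. They were not checked further and may not give what a row encodes. The other rows are named by identifier only. The RefSeq plastid genome holds 7 protein-coding symbols in more than 1 copy, among them the gene of ribosomal protein L2, so the counts of ATCG01310 are uncertain. ATCG00020, ATCG00190, ATCG00220 and ATCG01020 are shown in detail because of their values.

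Total counts ranged from 46189 to 221250466 per library, with a median of 30483879. The chloroplast rows drew 2942 to 237384 counts in shoot libraries other than the shallowest and 193 to 4917 in root libraries, so a root value rests on few reads. A pair of shoot libraries stood apart. Replicate 1 of the 7 h controls held the 46189 counts, of which 16 were chloroplast counts, and replicate 1 of ABA at 1 h had the highest chloroplast share of all libraries. Summed levels of 5 shoot markers had a median of 53680 CPM in shoot and 155.1 CPM in root. Of the 6 root markers, COBL9, EXPA7 and PLT1 had medians of 0.183, 0.252 and 0.107 CPM in shoot, while SCR was as high in shoot (median 37.5 CPM) as in root.

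Chloroplast RNA was a small part of these libraries and was far lower in root than in shoot. The 69 rows took between 0.0294% and 0.270% of counts in shoot, with a median of 0.0540%, and between 0.000747% and 0.00926% in root, with a median of 0.00248%. The ranges of both tissues did not overlap. The mitochondrial rows went the other way, with a median of 0.00674% of counts in shoot and 0.0138% in root. Chloroplast counts were thus 8.15 times the mitochondrial counts in the median shoot library and 0.157 times in the median root library. In whole organs, fewer cells with chloroplasts and less chloroplast RNA per cell cannot be told apart.

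In control seedlings at 0 h all 69 rows were lower in root than in shoot, with a median log2 fold change of -5.42 (edgeR quasi-likelihood test, Benjamini-Hochberg adjusted p under 0.05). Of all 22322 genes tested, 80.2% were called in that comparison and 42.2% were called lower in root. Rows had been kept by their shoot mean, which favours this direction. The difference ran from -7.89 to -2.03 on the log2 scale.

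ATCG00020 had the highest shoot mean of all rows, 92.3 CPM over the 58 shoot libraries. Levels per library are given from here on in CPM scaled by the trimmed mean of M values (TMM) within a tissue. On that scale ATCG00020 stood at 73.3, 92.2, 94.1 and 68.4 in the 4 shoot control libraries at 0 h, and in root at 1.57, 1.90, 1.19 and 2.01. Levels scaled within a tissue cannot be set against those of the other tissue. In the edgeR fit over both tissues, ATCG00020 had means of 104 CPM in shoot and 1.37 CPM in root. The log2 difference of root from shoot in that fit was -6.24 ± 0.36 (SE). ATCG00020 was picked by its shoot mean, which favours this direction, so its p-value is not given. ATCG00670, the Clp protease subunit, stood at 8.06, 7.77, 7.14 and 6.88 CPM in shoot and 0.559, 0.811, 0.689 and 0.946 CPM in root. In the fit over both tissues its means were 9.41 CPM in shoot and 0.616 CPM in root, and it differed less, by -3.94 ± 0.31. ATCG00420, the NADH dehydrogenase subunit, stood at 2.45, 1.80, 1.67 and 1.75 CPM in shoot and had a mean of 0.0188 CPM over all root libraries. For each of these rows the 4 root libraries lay below the 4 shoot libraries in the fit over both tissues.

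Nuclear genes of chloroplast proteins were lower in root as well. All 21 nuclear photosynthesis genes listed for comparison were called lower, with a median of -10.34, and so were 6 of 6 sigma factors (median -4.55), 12 of 12 proteins associated with the chloroplast polymerase (-3.68) and 11 of 11 factors of chloroplast RNA binding and turnover (-4.39). The phage-type polymerases were split, with 1 lower and 1 higher. Among 58 mitochondrial rows 21 were higher in root and 1 was lower, with a median of 0.63. Among all 22322 genes tested 8497 were called higher in root and 9410 lower.

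**Figure D1:**
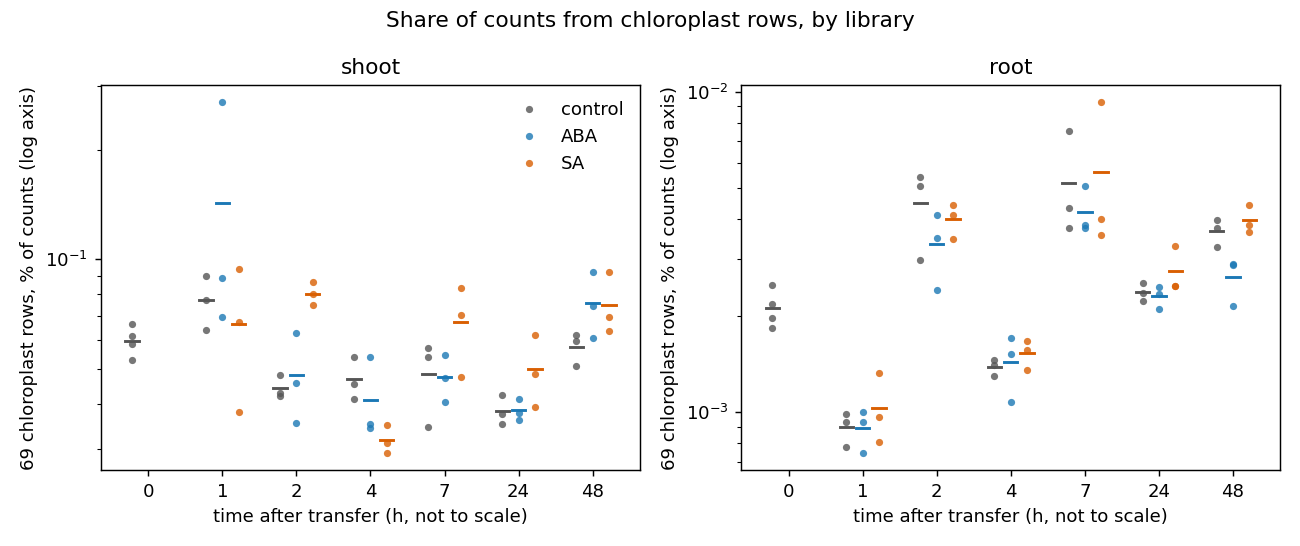
Share of counts taken by the 69 chloroplast rows in each library (percent of all counts, log axis) against time after transfer, for shoot on the left and root on the right. Points are libraries and short bars are group means; the ABA 1 h library at 0.270% stands above all other shoot libraries, and the root values are low at 1 h and 4 h and high at 2 h and 7 h in all 3 treatments.

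In root the share of chloroplast counts rose and fell between sampling times in all 3 treatments, as the plot of shares by library shows. In root controls it was 0.00212% ± 0.000285 (SD, n = 4) at 0 h, 0.000900% ± 0.000110 (n = 3) at 1 h, 0.00449% ± 0.00131 at 2 h and 0.00138% ± 7.87e-05 at 4 h. It then stood at 0.00521% ± 0.00204, 0.00237% ± 0.000148 and 0.00367% ± 0.000349 at 7, 24 and 48 h. The ABA roots had means of 0.000893%, 0.00335%, 0.00143% and 0.00422% at 1, 2, 4 and 7 h. The SA roots had 0.00103%, 0.00400%, 0.00153% and 0.00561% at those times.

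Row by row, 45 of the 47 chloroplast rows that passed the count filter in root differed over the control course in the joint test of all times against 0 h, where 87% of all genes were called. The filter leaves out the 22 rows lowest in root. Against 0 h, 23 rows were lower at 1 h (median -1.56, lower calls among all genes 16.1%), 32 were higher at 2 h (median 1.22, 24.8%) and 34 were higher at 7 h (median 1.53, 31.3%). At 4 h 4 rows were lower (13.3%), at 24 h 1 was higher (17.5%) and at 48 h 11 were higher (17.7%). Root control libraries at 0 and 1 h, at 2 to 24 h and at 48 h carry different prefixes in their names, so time and prefix cannot be told apart outside those sets, but the fall at 1 h and the changes from 4 to 24 h lie within a set. From 4 to 7 h 38 rows rose and 0 fell, with a median of 2.22 (higher calls among all genes 26.1%), and from 7 to 24 h 27 fell and 1 rose, with a median of -1.26 (lower calls 30.8%, higher 31.2%). Without replicate 3 of every group the counts called were 20 and 11.

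The Clp protease row ATCG00670 shows the pattern. Its control values in root were 0.509, 0.489 and 0.393 CPM at 4 h, 1.66, 1.11 and 3.52 CPM at 7 h, and 0.811, 1.26 and 0.719 CPM at 24 h. The groups at 4 and 7 h did not overlap, while those at 7 and 24 h did. The rise was 2.26 ± 0.45 on the log2 scale (adjusted p 3.16e-05, edgeR) and the fall to 24 h was -1.30 ± 0.38 (0.00316). ATCG00190 did not follow it. That row stood at 2.16, 2.60 and 2.65 CPM at 4 h and 3.54, 1.98 and 3.26 CPM at 7 h, and its difference of 0.28 ± 0.21 was not called. Mitochondrial rows moved with the chloroplast rows: 50 of 57 rose from 4 to 7 h (median 2.29) and 47 fell from 7 to 24 h (median -1.72). Among nuclear genes of chloroplast proteins, 6 of 21 photosynthesis genes were higher and 1 lower from 4 to 7 h. That is near the 26.1% of all genes called higher, while 4 of 6 sigma factors were higher. From 7 to 24 h 13 of 21 photosynthesis genes (median -1.19) and 6 of 6 sigma factors were lower, where 30.8% of all genes were called lower. What part a shared change of organelle RNA or of library preparation had in this was not tested.

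In shoot controls the share ranged less, from 0.0383% ± 0.00360 at 24 h to 0.0770% ± 0.0132 at 1 h (SD, n = 3), beside 0.0598% ± 0.00561 (n = 4) at 0 h. The joint test called 45 of 69 rows over the course, where 63.6% of all genes were called. Without replicate 2 of every group the count was 6, without replicate 3 it was 16, and without the ABA library of high share it was 60. Against 0 h no row was called at 1 h (edgeR, 0 also at unadjusted p under 0.05 and with DESeq2; 14% of all genes), 16 were lower and 2 higher at 2 h (lower calls among all genes 10.3%, higher 12.2%), 21 were lower at 7 h (14.5%) and 24 were lower at 24 h (15.3%). At 4 h 1 row was lower (7.45%), and at 48 h 3 were lower (17.1%). Without the ABA library of high share 8, 43 and 6 rows were lower at 4, 24 and 48 h. The median of the 69 rows lay lowest at 24 h, with -0.78, beside -0.58 at 2 h and -0.59 at 7 h, and was 0.02 at 48 h. In shoot controls the prefixes divide the course into 0 to 2 h, 4 to 24 h and 48 h, so the difference at 2 h lies within a set, while at 4 to 48 h time and prefix cannot be told apart.

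A pair of shoot rows fell much further than the rest at 7 h. ATCG01020 stood at 5.97, 5.39 and 5.03 CPM in controls at 4 h, at 0, 0.455 and 0.211 CPM at 7 h, and at 3.52, 4.07 and 3.61 CPM at 24 h, where the 0 comes from the shallowest library. ATCG00220 stood at 6.17, 5.43 and 5.59 CPM at 4 h, 0, 0.455 and 0.271 CPM at 7 h, and 2.60, 2.23 and 2.2 CPM at 24 h. Shoot libraries at 7 h other than the shallowest, hormone-treated ones included, all held less than 1 CPM of either row. In the shallowest library 3 counts equal 65.0 CPM, so its 0 values do not show a low level. The fall from 4 to 7 h was -4.28 ± 0.93 for ATCG01020 (adjusted p 0.00164, edgeR) and -4.14 ± 0.88 for ATCG00220 (0.00119). Of the 69 rows 6 were lower and 0 higher at 7 h than at 4 h (lower calls among all genes 5.72%). The count was 0 without replicate 3 of every group, 1 without replicate 2, 14 without replicate 1 and 16 without the ABA library of high share. ATCG00020 stood at 51.4, 43.9 and 52.7 CPM at 4 h and at 92.5 and 127 CPM in replicates 2 and 3 at 7 h, and its difference of 1.08 ± 0.40 was not called (adjusted p 0.0728, edgeR).

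**Figure D2:**
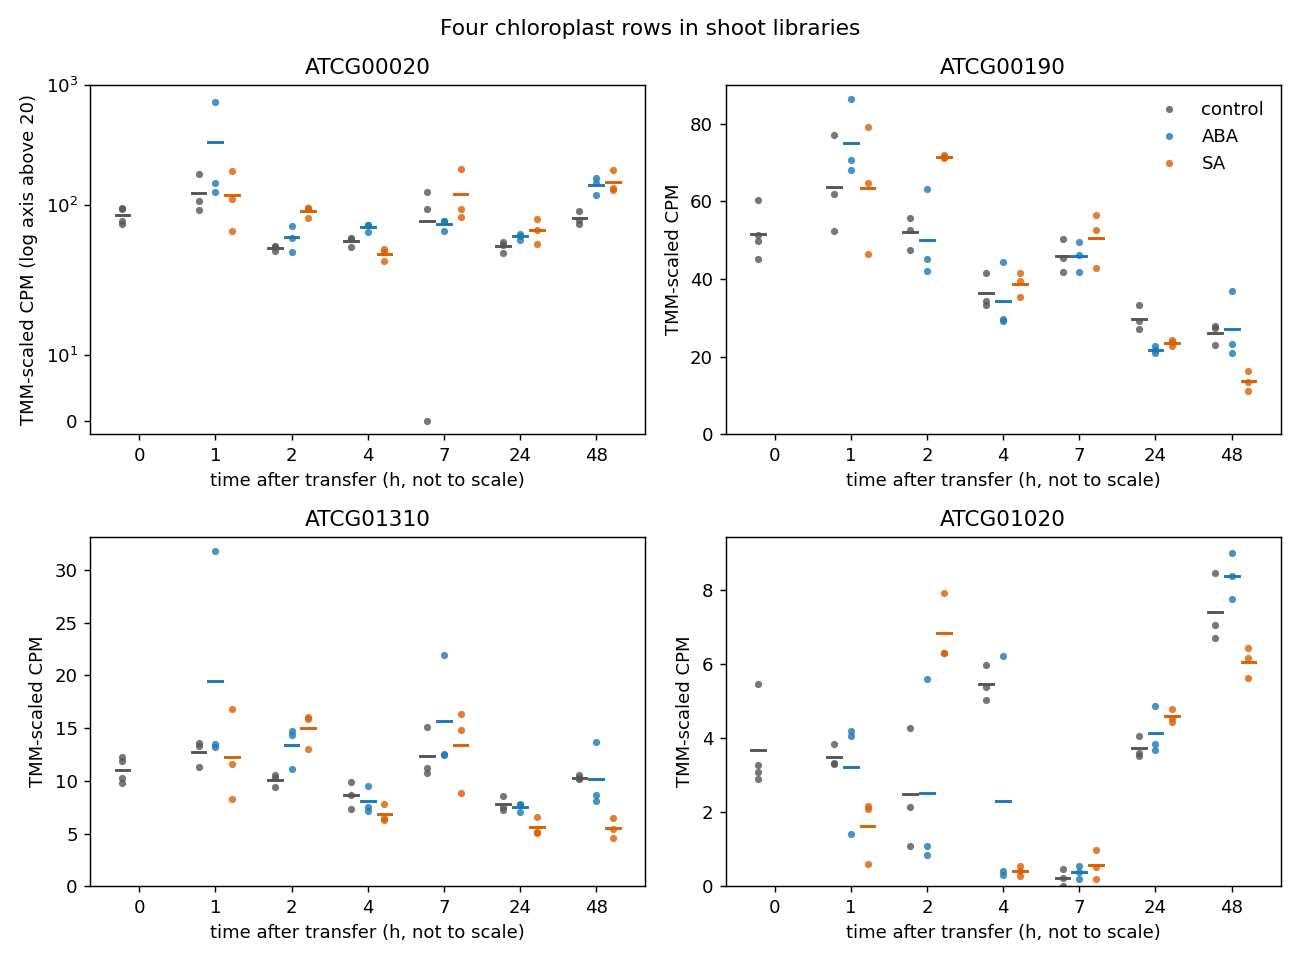
Levels of 4 chloroplast rows in shoot libraries (TMM-scaled CPM, with a log axis above 20 for ATCG00020) against time after transfer. Points are libraries and bars are group means; ATCG00190 and ATCG01310 are lowest in the SA libraries at 48 h, and ATCG01020 is under 1 CPM in the 3 SA libraries at 4 h and in all 9 libraries at 7 h.

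The response to ABA was asked with controls of the same time. The joint test over 6 times called 20 of 69 rows in shoot, below the 50.1% called among all genes, and 2 of 47 in root (76.8% of all genes). The rows had larger SEs than genes at large. At 2 h of ABA the median SE was 0.37 against 0.16 in shoot and 0.45 against 0.11 in root. A lower share of calls therefore does not by itself show a smaller response. The SA comparisons at each time use the same control libraries, so the values for both hormones are given side by side and are not counted as separate support.

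At 1 h of ABA 39 rows in shoot were higher and 0 lower, with a median of 0.95 (higher calls among all genes 14.5%). Replicate 1 carried this. Its chloroplast share was 0.270%, against 0.0693% and 0.0888% in the other ABA libraries and 0.0637% to 0.0901% in the controls. Without it 0 rows were called and the median was 0.11. Among the rows 5 of 69 did not overlap with the controls, while 13.1% of all genes were higher without overlap. The 2 called rows with the largest change were ATCG01250, at 12, 2.27 and 1.86 CPM with ABA and 1.96, 1.76 and 1.67 CPM in controls (1.61 ± 0.41, adjusted p 0.00289, edgeR), and ATCG00270, at 92.0, 19.8 and 14.3 CPM with ABA and 12.6, 18.4 and 12.9 CPM in controls (1.54 ± 0.38, 0.00175). In each the first ABA library is far above the rest and the others lie among the controls. Mitochondrial counts were raised in the same library, and the ratio of chloroplast to mitochondrial counts was 9.46 ± 1.07 with ABA and 9.76 ± 1.41 in controls. Among the 47 mitochondrial rows tested, 30 were called higher.

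At 4 h of ABA 10 rows were lower and 0 higher, with a median of -0.57 (lower calls among all genes 14.7%). Leaving out replicate 2 left 0 of these calls and leaving out replicate 3 left 1, while 21 rows were called without replicate 1. Without the ABA 1 h library of high share 16 rows were lower. The libraries were split. ATCG01020 stood at 6.21, 0.305 and 0.403 CPM and ATCG00220 at 7.11, 0.305 and 0.374 CPM. Replicate 1 was thus at the level of the controls. The other ABA libraries were at the level reached at 7 h by every library but the shallowest. ATCG00530, the CemA-related protein, followed the same split with 5.22, 1.57 and 1.78 CPM, against 5.08, 4.23 and 5.35 CPM in controls. At 2, 7, 24 and 48 h edgeR called 0 rows, with 0, 0, 1 and 2 rows at an unadjusted p under 0.05, and DESeq2 called 0 at each of these times; the share of all genes called was 30.4%, 17.4%, 18.6% and 15.3%. At 48 h 2 rows were called higher without the library of high share.

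**Figure D3:**
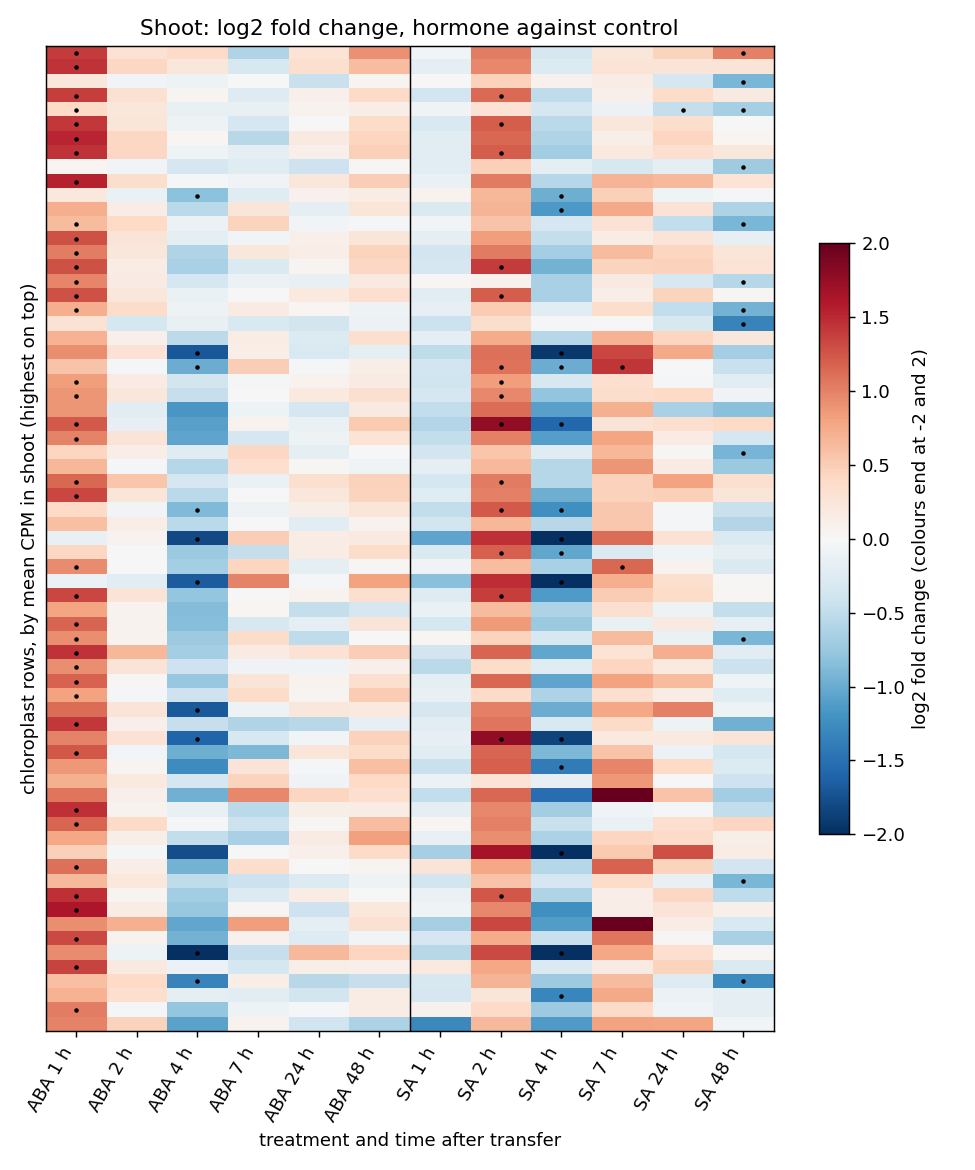
Log2 fold changes of the 69 chloroplast rows in shoot for each hormone and time against controls, with rows ordered by mean CPM in shoot. Red is higher with the hormone, blue lower, and a dot marks an adjusted p under 0.05; columns of 1 colour such as SA at 2 h and at 4 h contrast with SA at 48 h, where 11 rows are lower and 1 is higher.

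For SA the joint test in shoot called 39 of 69 rows, where 70.7% of all genes were called. It was 20 without replicate 3, 60 without the ABA library of high share, which enters the shared estimate of the spread, and 7 without replicate 2 of every group. At 1 h 0 rows were called by edgeR, also at an unadjusted p under 0.05 and with DESeq2 (0.856% of all genes).

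At 2 h of SA 15 rows were higher and 0 lower, with a median of 0.96 (higher calls among all genes 5.31%). In 62 of 69 rows all 3 SA libraries lay above all 3 controls, where 19.4% of all genes did so. ATCG00690 stood at 2.35, 2.48 and 2.57 CPM with SA and 1.13, 0.388 and 0.649 CPM in controls (1.78 ± 0.49, adjusted p 0.0144, edgeR). ATCG01050 stood at 7.99, 9.28 and 8.56 CPM with SA and 3.28, 2.03 and 2.22 CPM in controls (1.77 ± 0.49, 0.0159). Of the annotated rows only ATCG00530 was called, at 11.7 ± 1.76 CPM with SA and 5.56 ± 1.6 CPM in controls (SD, n = 3; 1.09 ± 0.33, adjusted p 0.0337). The other 6 annotated rows had positive differences that were not called. The control share was low at this time, 0.0444% ± 0.00327, while the SA share of 0.0805% ± 0.00596 was near that of controls at 1 h. The SA libraries at 2 h carry another name prefix than the controls at 2 h, so SA and prefix cannot be told apart here. Mitochondrial rows rose too, with 15 of 47 called higher and 1.57 times the share of counts. The count was 38 without the ABA library of high share, and it was 0 without replicate 2.

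At 4 h of SA the direction was the opposite, and these libraries share the prefix of their controls. Here 14 rows were lower and 0 higher, with a median of -0.66 (lower calls among all genes 8.83%), and 50 of 69 rows were lower without overlap (21.7% of all genes). The largest falls were those of ATCG01020, at 0.287, 0.536 and 0.424 CPM with SA and 5.97, 5.39 and 5.03 CPM in controls (-3.68 ± 0.68, adjusted p 4.98e-05, edgeR), and ATCG00220, at 0.287, 0.505 and 0.656 CPM against 6.17, 5.43 and 5.59 CPM (-3.55 ± 0.65, 3.67e-05). All 3 SA libraries were thus far below the controls of their time. ATCG00530 was lower as well, at 2.50, 2.18 and 2.70 CPM against 5.08, 4.23 and 5.35 CPM (-0.99 ± 0.37, 0.0470). ATCG00190 was not called and stood at 38.8 ± 3.16 CPM with SA and 36.5 ± 4.50 CPM in controls. The count was 3 without replicate 2 and 27 without the ABA library of high share.

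At 7 h 2 rows were higher, 4 without the ABA library of high share. ATCG00530 was among them, at 6.03, 4.46 and 2.86 CPM with SA and 2.55 and 1.23 CPM in the control libraries of normal depth (1.42 ± 0.50, adjusted p 0.0197, edgeR; 20% of all genes were called higher), and at 24 h 1 row was lower (30.4%). Without the ABA library of high share 3 rows were higher and 3 lower at 24 h.

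At 48 h of SA the rows were divided. ATCG00020 rose, 11 rows fell, and the others were not called, with a median of -0.24 over all 69 (among all genes 32% were called higher and 32.9% lower). The share called, 12 of 69, was far under the 65% of all genes, but the rows had a median SE of 0.38 and all genes 0.16. ATCG00020 stood at 194, 133 and 137 CPM with SA and 88.4, 68.6 and 74.5 CPM in controls, without overlap, a log2 difference of 1.00 ± 0.37 (adjusted p 0.0172, edgeR). The summed share of the 69 rows in raw counts was higher with SA, 0.0751% ± 0.0151 against 0.0575% ± 0.00589 (SD, n = 3). ATCG00020 alone took 0.0185% ± 0.00416 of counts with SA and 0.00741% ± 0.00116 in controls. The share of the other 68 rows, 0.0566% ± 0.0110 with SA and 0.0501% ± 0.00495 in controls, overlapped between the groups.

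Among the rows that fell, ATCG00170 stood at 3.70, 2.45 and 2.93 CPM with SA and 8.62, 6.43 and 7.92 CPM in controls (-1.34 ± 0.32, adjusted p 0.000290, edgeR). ATCG00190 stood at 16.4, 13.6 and 11.3 CPM with SA and 27.5, 23.1 and 27.8 CPM in controls (-0.91 ± 0.18, 2.77e-05). ATCG01310, ribosomal protein L2, stood at 6.43, 4.60 and 5.46 CPM with SA and 10.2, 10.1 and 10.5 CPM in controls (-0.91 ± 0.25, 0.00158). In each of them every SA library lay below every control. The other 6 annotated rows were not called: ribosomal proteins L20 and S11 had differences of -0.38 ± 0.43 and -0.43 ± 0.40, and the Clp protease subunit 0.23 ± 0.30. Without replicate 2 the count of called rows was 3 and ATCG00020 and ATCG01310 were no longer called, with differences of 1.08 and -0.73.

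The rows called lower at 48 h were not those called lower at 4 h, with 0 shared between the 11 and the 14. At 4 h 10 of the 11 rows had negative differences, with a median of -0.32 and 0 calls. A row that was not called may still have changed. At 24 h the 11 rows had a median of -0.32 and 1 call. In the control course 3 of the 11 were lower at 48 h than at 0 h (lower calls among all genes 17.1%), where time and prefix cannot be told apart.

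The ratio of ATCG00190 to ATCG00020 counts within a library is independent of library scaling. It was 0.0825 to 0.102 in SA shoots at 48 h, 0.141 to 0.244 in ABA shoots and 0.311 to 0.374 in controls, and the 3 ranges did not overlap. With SA at 48 h ATCG00020 was called higher and ATCG00190 lower in these same libraries. A lower ratio with SA than in controls follows from those calls and is not separate support. ABA shoots reached their ratio with ATCG00020 at 166, 120 and 151 CPM and ATCG00190 at 23.4, 21.0 and 36.8 CPM, and neither row was called against controls with ABA (adjusted p 0.0956 and 0.918, edgeR). In controls the ratio had been highest at 2 h, 1.08 to 1.36, leaving out the shallowest library, which held no ATCG00020 counts.

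**Figure D4:**
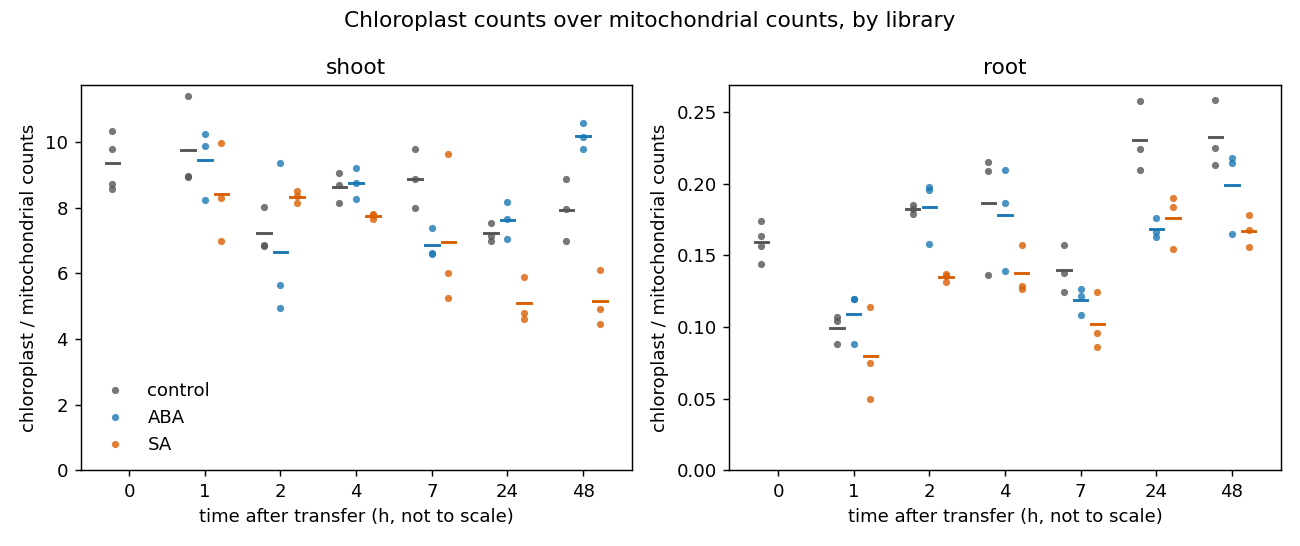
Counts of the 69 chloroplast rows divided by counts of the mitochondrial rows in each library against time after transfer, for shoot and root on separate axes. Points are libraries and bars are group means; with SA the ratio is below all controls at 4, 24 and 48 h in shoot and at 2, 7, 24 and 48 h in root, and above all controls at 2 h in shoot.

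Set against mitochondrial RNA, chloroplast RNA was lower with SA in both tissues at late times. In shoot the ratio at 48 h was 6.09, 4.91 and 4.47 in SA libraries in descending order and 6.97 to 8.88 in controls, and at 24 h it was 5.10 ± 0.683 against 7.23 ± 0.283. At 48 h the mitochondrial share with SA was 2.00 times that of controls, beside 1.31 times for the chloroplast share. Of 47 mitochondrial rows 18 were higher and 0 lower (among all genes 32% were called higher and 32.9% lower). In root the ratio with SA was 0.719 to 0.765 times that of controls at 2, 7, 24 and 48 h, without overlap, while the chloroplast share overlapped with controls at all 6 times. There the mitochondrial share was higher without overlap at 1, 4, 24 and 48 h, by 1.46 to 1.51 times. At each time 9 to 33 of 57 mitochondrial rows were called higher, beside 4850 to 7723 of all 21367 genes. The count was 9 at 2 h, beside 6285 of all genes, and 17 at 7 h, beside 5963. In shoot at 2 h of SA the ratio was above all controls, 8.34 ± 0.188 against 7.24 ± 0.689. Of the SA root libraries at 24 h only replicate 1 carries the prefix of the controls; its ratio was 0.190 against 0.209 to 0.258 in controls, and its mitochondrial share 0.0174% against 0.00980% to 0.0106%. With ABA the shoot ratio was lower without overlap at 7 h. The shallowest library is among those controls, and its ratio of 8 rests on 16 chloroplast counts and on still fewer mitochondrial counts. At 48 h the shoot ratio with ABA was higher without overlap (10.2 ± 0.401 against 7.94 ± 0.956). In root it was lower without overlap at 24 h, 0.732 times that of controls, which is near the value with SA at that time, and at 48 h the chloroplast share itself was lower without overlap with ABA, 0.720 times that of controls. These ratios are described by their spread only.

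In root the chloroplast rows gave few calls with either hormone. Against controls ABA changed 0 to 5 of 47 rows at a time, the most at 7 h with 5 lower (lower calls among all genes 26.3%) and 3 lower at 2 h (26.2%), at 24 and 48 h 1 lower (18.3% and 14.7%), at 4 h 1 higher (25.8%), and at 1 h 0 (edgeR, 2 at an unadjusted p under 0.05, 0 with DESeq2; 40.5%). ATCG00530 was among the 3 at 2 h, with 0.175, 0 and 0.326 CPM against 0.474, 0.438 and 0.564 CPM in controls (-1.05 ± 0.45, adjusted p 0.0480). The 0 comes from the root library of lowest depth, where 3 counts equal 0.596 CPM, and DESeq2 called 0 rows at 2 h. Without replicate 3 of every group 0 rows were called at 7 h, and without replicate 2 11 were called at 2 h.

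For SA the joint test in root called 0 of 47 rows (edgeR, 0 also at an unadjusted p under 0.05, 1 with DESeq2), where 92.6% of all genes were called. At single times SA changed 0 or 1 row, with 0 at 1 h (2 at an unadjusted p under 0.05, 1 with DESeq2; 45.2% of all genes called) and 0 at 7 h (0 and 0; 58.3%), where 10 were called without replicate 3 of every group. ATCG00180 was lower at 2 h, with 0.693, 0.665 and 0.796 CPM against 1.33, 0.861 and 1.19 CPM (-0.64 ± 0.27, adjusted p 0.0390; lower calls among all genes 32.1%). ATCG00020 was higher at 48 h, with 2.63, 3.83 and 2.84 CPM against 2.29, 1.63 and 1.55 CPM (0.80 ± 0.37, 0.0460; higher calls 36.1%), but not without replicate 2 (0.63) or without replicate 3 (0.69). At 4 h 1 row was higher (30.8%) and at 24 h 1 was lower (32.9%). In the hormone comparisons the standard errors of the 47 rows in root had medians of 0.75 to 0.90 on the log2 scale at 1 and 4 h, 0.51 to 0.55 at 24 and 48 h, and 0.43 to 0.45 at 2 and 7 h. The 69 rows in shoot had 0.36 to 0.47, so the precision in root was near that in shoot at 2 and 7 h and lower at the other times. Medians over all genes were 0.11 to 0.12 in root and 0.15 to 0.18 in shoot. The shares called among these rows and among all genes thus rest on unlike precision.

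The hormones were also compared directly. In shoot 64 of 69 rows differed between ABA and SA in the joint test (82.6% of all genes), and 46 without the ABA library of high share. At 1 h 58 rows were higher with ABA, but 0 without that library (higher calls among all genes 14.1%). At 2 h 21 rows were lower with ABA than with SA (15.2%), and 38 without the high library, where the prefix differs between the hormones. At 48 h 12 were higher with ABA (34%), 18 without the high library, among them ATCG00190 (0.96 ± 0.18, adjusted p 1.16e-05, edgeR), ATCG00170 (1.23 ± 0.32, 0.000803) and ATCG01310 (0.89 ± 0.25, 0.00193), while ATCG00020 did not differ beyond its error (-0.09 ± 0.37, 0.846). In root 13 of 47 rows differed in the joint test (94.7% of all genes), and 7 without replicate 3 of every group. All calls at 7 h and at 48 h in root, 9 and 11 rows, were lower with ABA than with SA (30.5% and 37%).

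Whether shoot and root responded differently was tested as an interaction over all libraries. For ABA 1 of 69 rows was called in the joint test (38.3% of all genes) and for SA 4 (72.1%). Of the 69 rows 22 failed the count filter in root and entered this fit through their shoot counts; all the rows called were among the other 47. For ABA it was 0 without replicate 3 of every group, and for SA 2 without replicate 1 or replicate 3 and 11 without the ABA library of high share. At 48 h of SA the change of ATCG00190 in shoot was lower than that in root by 1.16 ± 0.30 on the log2 scale (adjusted p 0.000731, edgeR). Root values of that row were 2.56, 2.69 and 2.12 CPM with SA and 1.55, 1.73 and 2.94 CPM in controls, which overlap. ATCG00170 also differed between the tissues at 48 h (-1.37 ± 0.53, 0.0235).

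**Figure D5:**
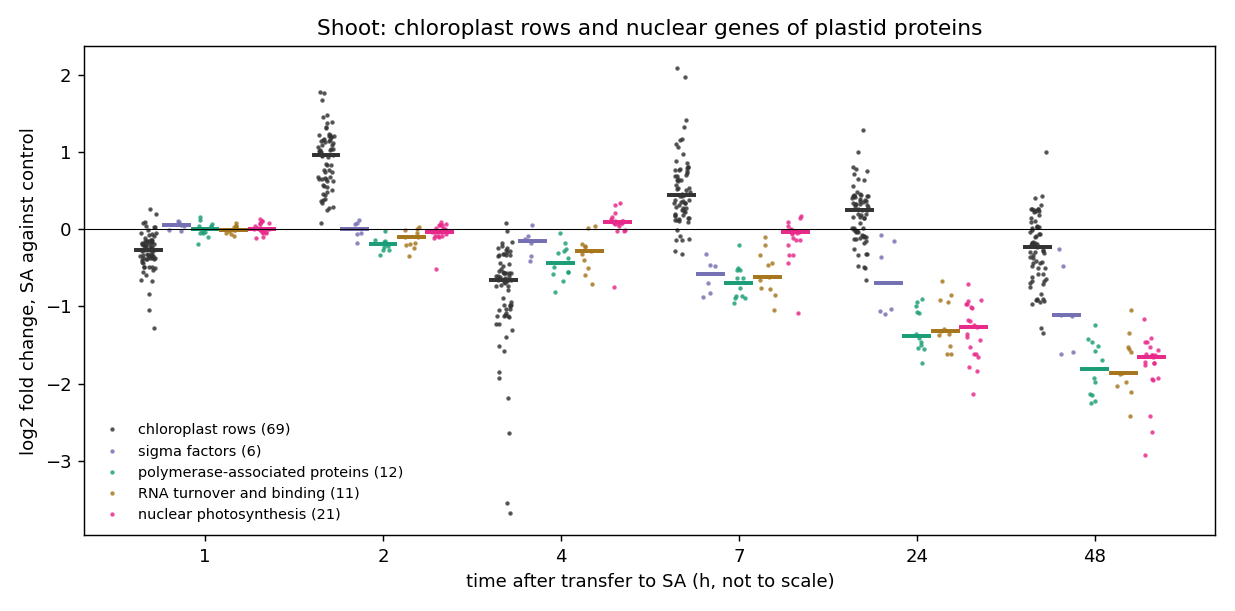
Log2 fold changes with SA in shoot at each time for the 69 chloroplast rows and for 4 lists of nuclear genes of chloroplast proteins, with the number of genes in brackets. Points are genes and bars are list medians; at 24 and 48 h the nuclear lists lie below 0 while the chloroplast rows are centred near 0.

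Nuclear genes that serve the chloroplast moved differently from its own rows under SA. At 48 h in shoot 21 of 21 nuclear photosynthesis genes were lower (median -1.65), and so were 12 of 12 polymerase-associated proteins (-1.81), 11 of 11 factors of RNA binding and turnover (-1.86) and 5 of 6 sigma factors (-1.12), beside the median of -0.24 for the chloroplast rows. SIG2 fell from 164.5 to 53.7 CPM (-1.61 ± 0.10, adjusted p 3.11e-18, edgeR) and SIG6 from 136.7 to 45.5 CPM (-1.59 ± 0.09, 1.35e-19). The phage-type polymerase RPOTp fell (-0.94 ± 0.15), and RPOTmp, which also serves mitochondria, had a difference of 0.03 ± 0.15. The shoot markers, some of which are on the photosynthesis list, went down with them, with a summed level of 23205 to 25182 CPM under SA and 54967 to 59148 CPM in controls at 48 h; their part in the result was not tested. At 24 h all 21 photosynthesis genes were already lower (median -1.27), while the chloroplast rows had a median of 0.25. At 2 h of SA, when chloroplast rows were higher, no gene of these lists was called by edgeR.

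At 4 h of SA, when chloroplast rows were lower, parts of some lists were lower too, but not the photosynthesis list. Here 6 of 12 polymerase-associated proteins, 5 of 11 RNA factors, 2 of 6 sigma factors and RPOTp (-0.64 ± 0.15, adjusted p 0.000879, edgeR) were lower (lower calls among all genes 8.83%). Of the photosynthesis genes 1 of 21 was lower, and their median was 0.09. ABA at 4 h gave 9 lower polymerase-associated proteins and 5 lower RNA factors (lower calls among all genes 14.7%), with 1 photosynthesis gene lower and 1 higher. Both phage-type polymerases were lower with ABA at that time, RPOTp from 63.7 to 27.8 CPM (-1.20 ± 0.15, 1.92e-08) and RPOTmp from 14.7 to 8.03 CPM (-0.87 ± 0.15, 7.73e-06), and also at 2 and 7 h, when edgeR called 0 chloroplast rows. In root at 4 h of SA 3 of 6 sigma factors were lower and 1 was higher. SIG6 was among the lower ones, from 7.33 to 2.99 CPM (-1.29 ± 0.13, 8.37e-12). Both phage-type polymerases were higher there, RPOTmp by 0.77 ± 0.09 and RPOTp by 0.25 ± 0.09, while 7 of 12 polymerase-associated proteins and 8 of 11 RNA factors were lower. Among all 21367 genes tested in root 6585 were called higher and 6587 lower. At that time 1 chloroplast row was called, higher with SA (30.8%).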

How the data were processed

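Stranded oligo-dT libraries were sequenced as 150 bp read pairs, per the labels' protocols. Per the submitters' processing notes, HISAT2, featureCounts and TAIR10 were used; the authors deposited whole-number counts per gene, analysed here as deposited. Members and lists were chosen with earlier results of these data known. Genes passing filterByExpr (21263 in shoot, 21367 in root, 22322 together) were fitted with edgeR's quasi-likelihood test (edgeR 4.0.16, limma 3.58.1, R 4.3.3) with 1 coefficient per group and TMM scaling, within each tissue over its 19 groups, or over all 38 for tissue comparisons. P-values were adjusted by Benjamini-Hochberg over all genes tested, and called means an adjusted p under 0.05. DESeq2 1.42.0, other scalings and filters, left-out libraries and a replicate block were alternatives. Values after ± are SEs for log2 changes and SDs otherwise. Scripts were tested on simulated counts. The named rows are the 7 with an annotation note, the row of highest shoot mean, and for a comparison at most 2 that rose and 2 that fell most (the rule had 3 of each), plus those named for their values. Of 120 replicate pairs compared, 0 had identical counts. Nuclear gene symbols are from RefSeq TAIR10.1.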

Additional observations from a re-analysis of the deposited data

Results flagged for a closer look

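In shoot controls at 0 h 1 of the 4 libraries stood apart from the others for each of 3 annotated rows, but not the same library for every row. ATCG00420, the NADH dehydrogenase subunit, was at 2.45 CPM in 1 library and at 1.67 to 1.80 CPM in the others. ATCG00660, ribosomal protein L20, was at 2.09 CPM against 1.51 to 1.59 CPM, and ATCG00750, ribosomal protein S11, at 2.12 CPM against 2.70 to 2.76 CPM. Chance alone sets about 1 in 20 groups apart in this way. The test of a different response in shoot and root called 1 of 69 chloroplast rows for ABA and 4 for SA.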

How the results depend on the processing

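Joint-test counts of called chloroplast rows depended on the libraries used. In shoot the 20 rows for ABA became 6 with DESeq2, 13 with DESeq2 size factors, 2 without both unusual libraries, 17 without the shallowest, and 2 to 9 with replicates left out. The 39 for SA became 60 without both libraries and 7 to 60 with libraries left out. The 64 rows differing between ABA and SA became 26 to 61 with replicates left out and 45 without both libraries, and the 45 of the control course 6 to 60. In root the 2 rows for ABA became 0 to 8, the 0 for SA became 1 with DESeq2, 1 with no filter and 1 to 3 with replicates left out, and the 13 between hormones became 7 to 12 with replicates left out. The interaction counts, 1 for ABA and 4 for SA, became 0 and 2 to 11 with libraries left out. At a minimum of 5 CPM 29 rows would have been members. The settings without the ABA 1 h library of high share were chosen after seeing the data. The ABA 1 h difference of ATCG00750 ranged from -0.04 without replicate 1 to 1.28 without replicate 2, and was -0.10 without that library and -0.11 without both; fewer libraries entered these fits, and the cause was not tested otherwise. For single named rows 203 settings kept the direction and the call and 97 lost the call. With only the 6 libraries compared, SA calls in shoot were 39 at 4 h and 23 at 48 h.

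With a replicate block the interaction counts were 5 for ABA and 17 for SA, and SA in shoot gave 52, 26, 0 and 7 calls at 2, 4, 7 and 24 h. ABA in shoot gave 17 calls at 4 h, and SA in root gave 0 at 48 h. The numbers were not taken as pairing samples: deviations of same-numbered libraries correlated above 0.1 in 43 of 48 pairs of shoot treatments at one time (mean 0.329), in 26 of 54 in root, and in 28 of 55 between tissues.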
